A study of Mus musculus with 4 samples.

Results

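The complement component genes described here are C1qa, C1qb, C1qc, C1ra, C1s1, C2, C4b, C3 and Cfb, 9 of the 55291 gene symbols counted in mouse pancreas. They were taken by exact symbol, and the list was drawn up with the contrast between the genotype groups in view, so their values in that contrast are given as a description without a test. The libraries labelled poh1f/f came from pancreas of Pdx1-Cre+ mice with both copies of poh1 floxed, and the poh1f/+ libraries from Pdx1-Cre+ mice with 1 floxed copy, with 2 libraries in each group. Both groups carried Cre, so the poh1f/+ mice are no wild type. Pdx1-Cre is active in the embryonic cells that become acini, ducts and islets, whereas macrophages, fibroblasts, fat cells and lymphocytes of the tissue come from other lineages. The labels give no age, sex or disease state and do not say that the libraries are separate animals; p-values cover the spread between them only, and that may be technical.

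Complement is a cascade of serum proteins that marks microbes, immune complexes and dying cells for removal. In the classical pathway C1q, built from the A, B and C chains, binds its target and activates the proteases C1r and C1s, which cut C4 and C2 into a C3 convertase. In the alternative pathway C3b pairs with factor B, which factor D cuts. Most plasma complement is made in the liver, but C1q is chiefly a product of macrophages, and fibroblasts and other stromal cells make C1r, C1s, C3 and C4.

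Psmd14, the current name of poh1, encodes the deubiquitinase of the proteasome lid. It had 1839 and 1906 counts in the libraries labelled poh1f/f, against 1354 and 1265 counts in the poh1f/+ libraries, or 65.6 ± 0.444 CPM against 57.3 ± 6.13 CPM (SD, n = 2 each). The log2 fold change was 0.20 ± 0.11 (SE, edgeR adjusted p = 0.259). RNA of the targeted gene was therefore not lower in the libraries labelled poh1f/f, and all directions given here are between labels. CPM values are counts relative to TMM-scaled library totals, and 1 count was worth 0.0342 to 0.0455 CPM. Total counts were 27470926 and 27849730 in the libraries labelled poh1f/f, against 22875618 and 24635792 in the poh1f/+ libraries. The acinar marker list summed to 205 and 631 CPM in the libraries labelled poh1f/f, against 10800 and 2395 CPM in the poh1f/+ libraries, which thus differed among themselves. Intestinal markers summed to 538 CPM in replicate 2 labelled poh1f/f, against 21.8 CPM in replicate 1 and 101 and 115 CPM in the poh1f/+ libraries. In tissue RNA, fewer cells of a type and less RNA per cell cannot be told apart.

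All 9 members passed the filter on low counts. The 3 C1q chains were lower in the libraries labelled poh1f/f, C1s1 and C2 overlapped between groups, and C1ra, C4b, C3 and Cfb were higher. In 7 of 9 members the libraries of the groups did not overlap, beside 68.1% of the 19134 genes tested. Past an edgeR adjusted p of 0.05 lay 4 members, 1 higher and 3 lower, beside 22.1% of genes tested, 12.1% higher and 9.95% lower. The median log2 fold change was 0.08 over the members and 0.00 over all genes tested. Nothing is read from these counts, because the contrast was known when the list was made. C1qb alone was past the threshold without poh1f/+ replicate 1 or without either library labelled poh1f/f, and C1qa, C1qb, C1qc and C3 were past it without poh1f/+ replicate 2. Together the members took 0.935% and 0.842% of all counts in the libraries labelled poh1f/f, against 0.623% and 0.740% in the poh1f/+ libraries, and C3 was the largest contributor in each library.

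**Figure D1:**
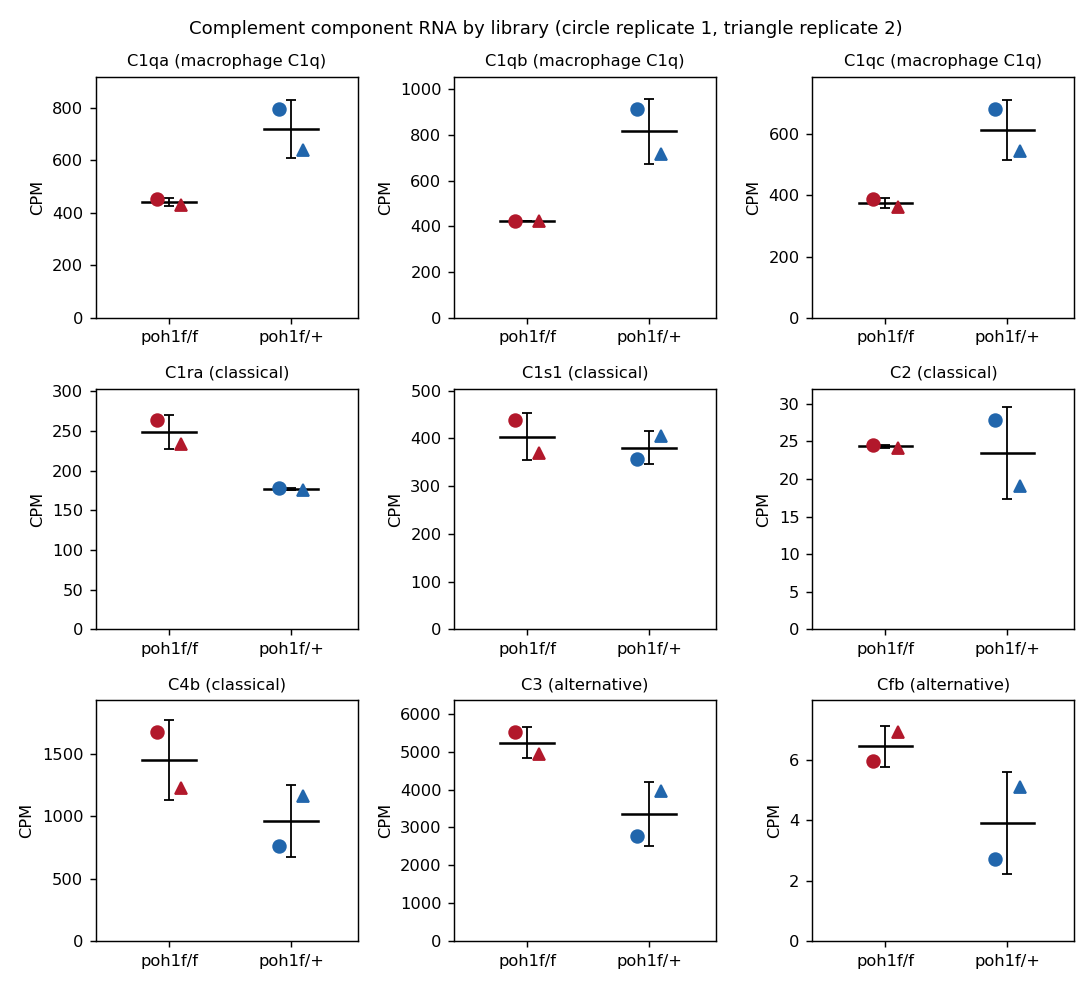
CPM (vertical axes, from 0) of the 9 members in each library, with libraries labelled poh1f/f left and poh1f/+ right; circles are replicate 1, triangles replicate 2, lines the mean and bars the SD. C1qa, C1qb and C1qc lie lower in both libraries labelled poh1f/f, C1ra, C4b, C3 and Cfb lie higher, and C1s1 and C2 overlap.

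C1qa, C1qb and C1qc sit next to each other on the minus strand of chromosome 4 (GRCm38): C1qb from 136880129 to 136886187, C1qc from 136889804 to 136893065 and C1qa from 136895917 to 136898803. C1qa, the A chain, had 452 and 430 CPM in the libraries labelled poh1f/f, against 796 and 640 CPM in the poh1f/+ libraries. C1qb, the B chain, had 424 and 425 CPM in the libraries labelled poh1f/f, against 916 and 716 CPM in the poh1f/+ libraries. C1qc, the C chain, had 386 and 363 CPM in the libraries labelled poh1f/f, against 684 and 545 CPM in the poh1f/+ libraries. All 3 chains were thus lower in both libraries labelled poh1f/f, which lay close together, and within the poh1f/+ group all 3 were higher in replicate 1. The log2 fold changes were −0.70 ± 0.16 for C1qa, −0.94 ± 0.17 for C1qb and −0.71 ± 0.16 for C1qc (± SE). Summed, the chains reached 1240 ± 31.7 CPM in the libraries labelled poh1f/f and 2149 ± 350 CPM in the poh1f/+ libraries (SD, n = 2 each).

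The chains assemble in equal numbers in the C1q protein, and their RNA kept nearly fixed proportions. Per kilobase of the longest annotated transcript, C1qa held 38.0% and 37.4% of the C1q level in the libraries labelled poh1f/f, against 35.2% and 35.7% in the poh1f/+ libraries. C1qb held 34.0% and 35.3% in the libraries labelled poh1f/f, against 38.7% and 38.1% in the poh1f/+ libraries. C1qc held 28.1% and 27.3% in the libraries labelled poh1f/f, against 26.1% and 26.2% in the poh1f/+ libraries. The B chain therefore gave a smaller share, and the A and C chains a larger one, in both libraries labelled poh1f/f. Among the 11349 tested genes with a mean of at least 10 CPM, C1qc had the pattern most like that of C1qa over the 4 libraries, with a root mean square difference of 0.01 in centred log2 CPM. Next came Ctns, the lysosomal cystine transporter (0.02), and Prdx4, a peroxiredoxin of the endoplasmic reticulum (0.02). With 4 libraries such likeness is a description only.

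Macrophage markers moved beside the C1q chains. The list of 15 summed to 4434 and 4140 CPM in the libraries labelled poh1f/f, against 6686 and 6079 CPM in the poh1f/+ libraries. Of its members 9 fell, 2 rose and 4 did not pass (edgeR, median log2 fold change −0.70), and none was at 0 in any library. The 2 that rose were Timd4, a phosphatidylserine receptor of resident macrophages (3.61 ± 0.26, edgeR adjusted p = 0.00286), and Lyve1, a hyaluronan receptor shared by some macrophages and lymphatic vessels (2.59 ± 0.19, edgeR adjusted p = 0.00301). Trem2, a lipid receptor of macrophages, fell by 1.97 ± 0.18 (edgeR adjusted p = 0.0045), whereas Mrc1 was at 373 and 286 CPM in the libraries labelled poh1f/f, against 325 and 332 CPM in the poh1f/+ libraries. The C1q sum was 28.5% and 29.4% of the macrophage marker sum in the libraries labelled poh1f/f, against 35.8% and 31.3% in the poh1f/+ libraries. The largest part of the marker sum was Lyz2. Its means were 1980 CPM in the libraries labelled poh1f/f and 3224 CPM in the poh1f/+ libraries, beside mean sums of 4287 and 6383 CPM. The ratio therefore rests in large part on Lyz2. The part that a change in macrophage number had in the C1q values was not tested.

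C1ra and C1s1 encode the proteases that C1q activates and lie on chromosome 6, C1ra on the plus strand from 124512405 to 124523443 and C1s1 on the minus strand from 124530345 to 124542359. C1ra had 264 and 234 CPM in the libraries labelled poh1f/f, against 177 and 176 CPM in the poh1f/+ libraries, a log2 fold change of 0.49 ± 0.12. C1s1 had 438 and 368 CPM in the libraries labelled poh1f/f, against 356 and 405 CPM in the poh1f/+ libraries, a log2 fold change of 0.08 ± 0.15. The groups were apart for C1ra and overlapped for C1s1, so the per-kilobase ratio of C1s1 to C1ra was 1.68 and 1.60 in the libraries labelled poh1f/f, against 2.03 and 2.33 in the poh1f/+ libraries. C1ra shares 34.5% of its 100-base transcript windows with the neighbouring copy C1rb, and C1s1 shares 7.90% with C1s2, so reads from those stretches may have been split or dropped. C1rb had 55 and 100 counts in the libraries labelled poh1f/f, against 16 and 9 counts in the poh1f/+ libraries, far below C1ra. An antisense gene, Gm16567, overlaps 18.4% of the C1s1 exon bases, and whether the counting used strand is not stated in the sources used.

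C4b and C2 provide the substrates that become the classical C3 convertase, and both lie on chromosome 17, in the major histocompatibility complex. C4b (minus strand, 34728380 to 34743882) encodes C4 and had 1680 and 1225 CPM in the libraries labelled poh1f/f, against 759 and 1164 CPM in the poh1f/+ libraries. Replicate 2 labelled poh1f/f and poh1f/+ replicate 2 were nearly level, and the log2 fold change was 0.59 ± 0.28. The closely related C4a shares 16.5% of the C4b windows and had 127 and 116 counts in the libraries labelled poh1f/f, against 34 and 93 counts in the poh1f/+ libraries (0.64 ± 0.48, edgeR adjusted p = 0.376). C2 (minus strand, 34862604 to 34898265), the catalytic part of the convertase, had 24.5 and 24.2 CPM in the libraries labelled poh1f/f, against 27.8 and 19.1 CPM in the poh1f/+ libraries. Both libraries labelled poh1f/f lay between the poh1f/+ libraries for C2, with a log2 fold change of 0.05 ± 0.21. The genes nearest to C4b in pattern were Lims2, an adaptor of cell adhesions, Rapgef3, a cAMP-activated exchange factor, and Kank1, a regulator of the cytoskeleton, with root mean square differences of 0.04, 0.05 and 0.05.

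C3, the protein on which all pathways converge, lies on the minus strand of chromosome 17 from 57203970 to 57228136. It had 5531 and 4948 CPM in the libraries labelled poh1f/f, against 2760 and 3959 CPM in the poh1f/+ libraries. The groups did not overlap, but the poh1f/+ libraries were further apart from each other than poh1f/+ replicate 2 was from replicate 2 labelled poh1f/f. The log2 fold change was 0.64 ± 0.24, and it was 0.41 without poh1f/+ replicate 1 and 0.93 without poh1f/+ replicate 2. C3 held 0.562% and 0.519% of all counts in the libraries labelled poh1f/f, against 0.265% and 0.384% in the poh1f/+ libraries. Its nearest genes in pattern were Serpina3n, a serpin induced with acute phase genes in mouse, Arrb1, an arrestin, and Hspa12b, an endothelial chaperone relative, each with a root mean square difference of 0.02. Serpina3n had 305 and 283 CPM in the libraries labelled poh1f/f, against 156 and 225 CPM in the poh1f/+ libraries.

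Cfb encodes factor B, the protease of the alternative C3 convertase, and lies on the minus strand of chromosome 17 from 34856374 to 34862518. It had 5.98 and 6.95 CPM in the libraries labelled poh1f/f, against 2.73 and 5.10 CPM in the poh1f/+ libraries, or 167 and 203 counts against 60 and 122 counts. The groups did not overlap and the log2 fold change was 0.72 ± 0.36, which was 0.34 without poh1f/+ replicate 1 and 1.25 without poh1f/+ replicate 2. A readthrough gene, Gm20547, runs over Cfb and C2 on the same strand (34856412 to 34882042) and covers 79.5% of the Cfb and 42.8% of the C2 exon bases. Gm20547 had 0 counts in all 4 libraries. In the annotation used here its 3902 exon bases are those shared with Cfb (2246) and C2 (1656). It thus had no exon base of its own, and its 0 counts are no measure of its expression. The sources used do not say how reads in exons of several genes were treated, so the levels of Cfb and C2 may be too low, and their ratio to other genes is uncertain. Set over the 579 Cfb exon bases outside Gm20547, the level was 10.3 and 12.0 CPM per kilobase in the libraries labelled poh1f/f, against 4.71 and 8.81 in the poh1f/+ libraries. For C2, over 2216 such bases, it was 11.1 and 10.9 CPM per kilobase in the libraries labelled poh1f/f, against 12.6 and 8.63 in the poh1f/+ libraries.

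Per kilobase of the longest transcript, the order of the group means differed at its top, where the place of C3 rested on poh1f/+ replicate 1. The order of C1qa and C1qb did not rest on that library. C1qb lay above C1qa in both poh1f/+ libraries and below it in both libraries labelled poh1f/f. In the libraries labelled poh1f/f C3 stood first with 1020 ± 80.2 CPM per kilobase, ahead of C1qa (435 and 414 in the single libraries), C1qb (390 ± 0.764) and C1qc (311 ± 14.1). In the poh1f/+ libraries C1qb stood first with 750 ± 130 CPM per kilobase, followed by C1qa (691 ± 106), C3 (654 ± 165) and C1qc (511 ± 81.5), and the libraries of these neighbours overlapped. In poh1f/+ replicate 2 alone C3 stood first, at 771 CPM per kilobase beside 658 for C1qb and 616 for C1qa. C4b came next in both groups, with 270 ± 59.8 CPM per kilobase in the libraries labelled poh1f/f, where it overlapped C1qc, and 179 ± 53.2 in the poh1f/+ libraries. C1s1 stood at 137 ± 16.8 in the libraries labelled poh1f/f and 129 ± 11.8 in the poh1f/+ libraries. C1ra stood at 83.4 ± 7.13 CPM per kilobase in the libraries labelled poh1f/f and 59.3 ± 0.323 in the poh1f/+ libraries. C2 had 9.21 ± 0.0893 CPM per kilobase in the libraries labelled poh1f/f and 8.89 ± 2.33 in the poh1f/+ libraries. Cfb was last in both groups, with 2.35 ± 0.249 CPM per kilobase in the libraries labelled poh1f/f and 1.42 ± 0.610 in the poh1f/+ libraries (SD, n = 2 each). The other neighbours in each order did not overlap on this scale. The order of C2 and Cfb does not hold outside Gm20547, where their values overlapped in both groups. The C1qc value depends on the length used, since over all its annotated exon bases it was 200 and 188 CPM per kilobase in the libraries labelled poh1f/f, against 354 and 282 in the poh1f/+ libraries.

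The promoters of C1qb, C1s1 and C3 are shown as an example of each pattern: C1qb was lower in the libraries labelled poh1f/f, C1s1 overlapped and C3 was higher. RefSeq windows (GRCm38.p6) were at hand for 5 of 9 members, and the 250 bases before the annotated start were searched on both strands for the STAT motif TTCNNNGAA, the C/EBP motif TTGCNNAA, the interferon response motif GAAANNGAA, the NF-kB motif GGGNNTTTC, the ETS motif GAGGAA and the core promoter box with the letters TATAAA. Capitals mark matches on either strand; the windows are chr4:136886201-136886450, chr6:124542360-124542609 and chr17:57228137-57228386, each read 5′ to 3′ along the gene's minus strand.
C1qb: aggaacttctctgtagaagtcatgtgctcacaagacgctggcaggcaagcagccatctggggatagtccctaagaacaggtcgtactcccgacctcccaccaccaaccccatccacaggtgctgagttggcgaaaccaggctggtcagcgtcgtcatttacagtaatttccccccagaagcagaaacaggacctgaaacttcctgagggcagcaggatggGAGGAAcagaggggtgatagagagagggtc
C1s1: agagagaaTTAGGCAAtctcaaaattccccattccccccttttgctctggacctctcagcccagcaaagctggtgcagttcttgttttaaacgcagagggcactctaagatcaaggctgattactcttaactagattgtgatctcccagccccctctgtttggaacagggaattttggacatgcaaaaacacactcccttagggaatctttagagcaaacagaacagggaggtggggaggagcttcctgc
C3: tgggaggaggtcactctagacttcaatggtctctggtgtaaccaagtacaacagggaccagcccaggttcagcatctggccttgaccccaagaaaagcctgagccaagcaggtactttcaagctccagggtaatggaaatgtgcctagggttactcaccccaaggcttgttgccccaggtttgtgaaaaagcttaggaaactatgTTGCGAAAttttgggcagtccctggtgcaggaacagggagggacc
C1qb held an ETS match that began 30 bases before its start, and C1qc held 1 at 193 bases; 23.3% of 32851 windows hold that motif. C3 held a C/EBP match that began 45 bases before its start, and C1s1 held 1 at 242 bases; 9.56% of windows hold that motif. The C1ra window, and a second C1s1 window from a start further downstream, held none of the 6. By the gene coordinates given above, most of the C1ra window (chr6:124512371-124512620) lies within the gene, as its RefSeq start is further downstream. Parts of the C1qc window and of the second C1s1 window also lie within their genes. The core promoter box, STAT, interferon response and NF-kB letters, found in 12.4%, 7.02%, 7.13% and 3.72% of windows, were in none of the 6 member windows. No matches of different motifs overlapped, the motifs were chosen with the sequences in view, and a match is a description of letters only.

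The 52 other complement genes, listed by role, moved in both directions. Of the 43 that were tested 10 rose, 10 fell and 23 did not pass (edgeR), 46.5% called beside 22.1% of all genes tested, with a median log2 fold change of −0.10 beside 0.00. The list was written with earlier results of these data known. The count filter keeps genes present in 1 group only, and 9 genes were too low to test. Without poh1f/+ replicate 1 the counts were 6 higher and 4 lower, and they were also 6 and 4 without poh1f/+ replicate 2.

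**Figure D2:**
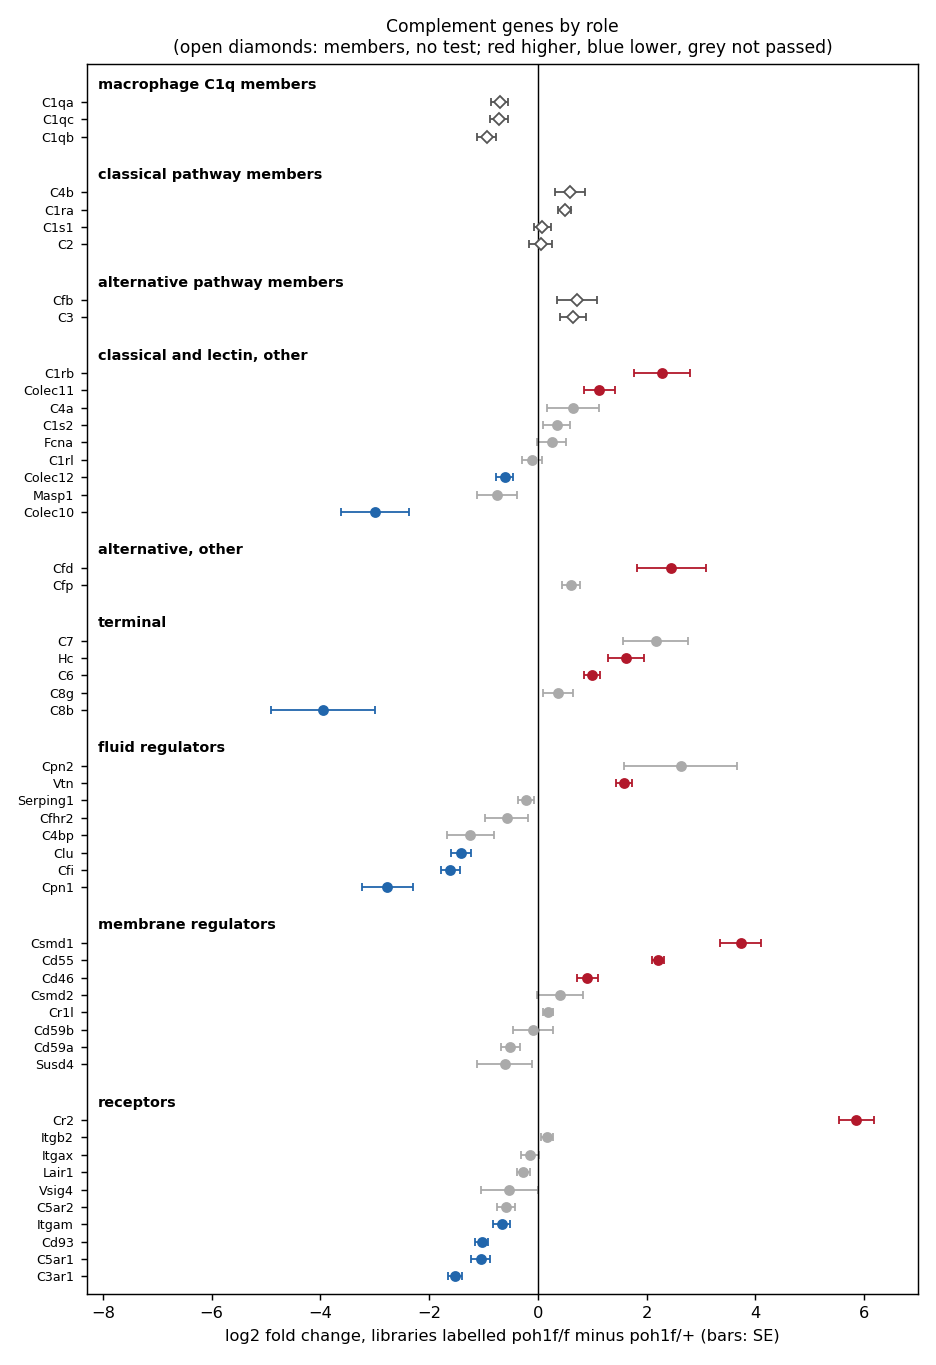
Log2 fold change (horizontal axis, libraries labelled poh1f/f minus poh1f/+, bars SE) of the members and of other tested complement genes, grouped by role. Open diamonds are the members, shown without a test; red, blue and grey circles are other genes that rose, fell or did not pass. Cr2 lies furthest to the right at 5.86. Among the lists of other genes, each but the alternative and membrane ones holds a gene that fell.

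Among the recognition molecules and proteases beside the members, 2 rose, 2 fell and 5 of 9 tested genes did not pass, with a median log2 fold change of 0.26. C1rb rose (2.29 ± 0.51, edgeR adjusted p = 0.0354), as did Colec11, a collectin that starts the lectin pathway, with 8.27 and 7.39 CPM in the libraries labelled poh1f/f, against 2.91 and 4.22 CPM in the poh1f/+ libraries (edgeR adjusted p = 0.045). Its partner Colec10 fell, with 0.43 and 1.23 CPM in the libraries labelled poh1f/f, against 4.46 and 8.87 CPM in the poh1f/+ libraries (edgeR adjusted p = 0.0303). Colec12, a scavenger receptor collectin, fell by 0.61 ± 0.16 in log2 CPM (edgeR adjusted p = 0.0488). The calls of C1rb, Colec10, Colec11 and Colec12 were each lost without either poh1f/+ library, at edgeR adjusted p from 0.0572 to 0.13. Without replicate 1 labelled poh1f/f the Colec11 call was also lost (0.0779), as were those of C1rb (0.0787) and Colec12 (0.263) without replicate 2 labelled poh1f/f.

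Factor D and properdin act with C3 and factor B in the alternative pathway. Cfd, factor D or adipsin, a protease made by fat cells, rose, with 855 and 1052 CPM in the libraries labelled poh1f/f, against 73.0 and 274 CPM in the poh1f/+ libraries (2.46 ± 0.63, edgeR adjusted p = 0.0486; 0.0586 with a filter at a mean of 10 counts). The poh1f/+ libraries were far apart, and the log2 fold change was 1.80 without poh1f/+ replicate 1 and 3.71 without poh1f/+ replicate 2. Cfp, properdin, which stabilises the convertase, had 188 and 152 CPM in the libraries labelled poh1f/f, against 123 and 100 CPM in the poh1f/+ libraries and did not pass (0.61 ± 0.16, edgeR adjusted p = 0.0561), but passed without replicate 2 labelled poh1f/f (0.0276). Adipocyte markers moved beside Cfd: 8 of 9 rose and 1 did not pass (median 2.88), and their sum was 3698 and 2849 CPM in the libraries labelled poh1f/f, against 396 and 832 CPM in the poh1f/+ libraries. Ucp1 was the only one at 0 in a library, with 217 and 521 counts in the libraries labelled poh1f/f, against 0 and 2 counts in the poh1f/+ libraries. The ratio of C3 to Cfd in CPM was 6.47 and 4.70 in the libraries labelled poh1f/f, against 37.8 and 14.4 in the poh1f/+ libraries. The part that fat had in the Cfd and C3 values was not tested.

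The terminal components form the membrane attack complex after C3 is cut. Hc, the mouse gene of C5, rose, with 4.94 and 4.83 CPM in the libraries labelled poh1f/f, against 1.91 and 1.25 CPM in the poh1f/+ libraries (1.63 ± 0.33, edgeR adjusted p = 0.0277). C6 rose to 40.4 and 33.4 CPM in the libraries labelled poh1f/f, against 17.9 and 19.2 CPM in the poh1f/+ libraries (0.99 ± 0.15, edgeR adjusted p = 0.0139). C8b, a chain of C8, fell, with 0 and 2 counts in the libraries labelled poh1f/f, against 12 and 16 counts in the poh1f/+ libraries (edgeR adjusted p = 0.0433). It passed the count filter through the poh1f/+ libraries alone, and was too low to test with a filter at a mean of 10 counts or without poh1f/+ replicate 2. C7, named after its values were seen, had 153 and 137 CPM in the libraries labelled poh1f/f, against 13.4 and 51.1 CPM in the poh1f/+ libraries and did not pass (edgeR adjusted p = 0.0593). C9, the pore-forming unit, had 0 counts in all 4 libraries. The calls of Hc and C6 were lost without poh1f/+ replicate 1 (edgeR adjusted p = 0.0663 and 0.0771) and without poh1f/+ replicate 2 (0.0731 and 0.052), and that of C8b without poh1f/+ replicate 1 (0.17) or replicate 1 labelled poh1f/f (0.129).

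Among soluble regulators 3 of 9 tested genes fell, 1 rose and 5 did not pass (median log2 fold change −0.57). Cfi, factor I, the protease that destroys C3b and C4b, fell to 7.16 and 7.94 CPM in the libraries labelled poh1f/f, against 25.1 and 21.2 CPM in the poh1f/+ libraries (−1.61 ± 0.17, edgeR adjusted p = 0.00692). Clu, clusterin, an inhibitor of the terminal complex, fell to 1650 and 1624 CPM in the libraries labelled poh1f/f, against 4805 and 3964 CPM in the poh1f/+ libraries (−1.42 ± 0.18, edgeR adjusted p = 0.00966). Cpn1, the carboxypeptidase that inactivates C3a and C5a, fell by 2.77 ± 0.47 in log2 CPM (edgeR adjusted p = 0.0188), a call lost without poh1f/+ replicate 1 (0.11) or 2 (0.0612). Vtn, vitronectin, rose to 30.1 and 33.9 CPM in the libraries labelled poh1f/f, against 10.2 and 11.1 CPM in the poh1f/+ libraries (1.59 ± 0.15, edgeR adjusted p = 0.00478). Serping1, the C1 inhibitor, did not pass and was at 669 and 564 CPM in the libraries labelled poh1f/f, against 744 and 687 CPM in the poh1f/+ libraries (edgeR adjusted p = 0.352).

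Among membrane regulators 3 of 8 tested genes rose and 5 did not pass (median log2 fold change 0.29). Cd55, decay-accelerating factor, which takes C3 convertases apart, rose to 213 and 207 CPM in the libraries labelled poh1f/f, against 47.6 and 42.9 CPM in the poh1f/+ libraries (2.21 ± 0.11, edgeR adjusted p = 0.00175). Csmd1, a large membrane protein with the sushi repeats of complement regulators, rose to 24.4 and 26.5 CPM in the libraries labelled poh1f/f, against 1.23 and 2.59 CPM in the poh1f/+ libraries (3.73 ± 0.37, edgeR adjusted p = 0.00567). Cd46, in human a cofactor for factor I, rose by 0.91 ± 0.20 in log2 CPM (edgeR adjusted p = 0.0325), a call lost without poh1f/+ replicate 1 (0.112), poh1f/+ replicate 2 (0.0638) or replicate 1 labelled poh1f/f (0.0867).

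Among 10 receptors 1 rose, 4 fell and 5 did not pass (median log2 fold change −0.55). Cr2, the complement receptor of B cells and follicular dendritic cells, rose, with 3404 and 3963 counts in the libraries labelled poh1f/f, against 66 and 35 counts in the poh1f/+ libraries (5.86 ± 0.33, edgeR adjusted p = 0.00179). C3ar1, the receptor of the C3a fragment, fell to 97.6 and 104 CPM in the libraries labelled poh1f/f, against 315 and 267 CPM in the poh1f/+ libraries (−1.53 ± 0.13, edgeR adjusted p = 0.00427). C5ar1, the C5a receptor, fell by 1.05 ± 0.17 in log2 CPM (edgeR adjusted p = 0.017), a call lost without poh1f/+ replicate 1 (0.0955) or 2 (0.0659). Cd93, an endothelial and myeloid protein first described as a C1q receptor, fell by 1.03 ± 0.12 (edgeR adjusted p = 0.00765). Itgam, the alpha chain of complement receptor 3, was the fourth to fall (−0.67 ± 0.15, edgeR adjusted p = 0.0343) and is named outside the rule. C3 and its receptor C3ar1 thus stood in a CPM ratio of 56.7 and 47.4 in the libraries labelled poh1f/f, against 8.77 and 14.8 in the poh1f/+ libraries. Lymphocyte markers moved beside Cr2 and Cd55: all 12 rose (median 4.28), none was at 0, and they summed to 2068 and 1675 CPM in the libraries labelled poh1f/f, against 172 and 123 CPM in the poh1f/+ libraries. Of 8 follicular dendritic cell markers, a list that holds Cr2 and Clu too, 5 rose, 1 fell and 2 did not pass. Cd2 (4.18 ± 0.15, edgeR adjusted p = 0.00153) and Fcer2a (5.61 ± 0.29, edgeR adjusted p = 0.00175) had the smallest p in these lists. The part these cells had in the values of Cr2 and Cd55 was not tested.

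Interferon gamma, tumour necrosis factor, interleukin 1 and interleukin 6 are known inducers of C3, C4, factor B, C2 and C1s in stromal cells and hepatocytes. Of 18 tested cytokines, receptors and transcription factors of these routes 3 rose, 1 fell and 14 did not pass, or 22.2% called beside 22.1% of all genes tested. Irf1, an interferon-induced transcription factor, was at 214 and 312 CPM in the libraries labelled poh1f/f, against 107 and 143 CPM in the poh1f/+ libraries (1.07 ± 0.24, edgeR adjusted p = 0.0355), and Il1b rose by 1.10 ± 0.25 (edgeR adjusted p = 0.0384). Ifngr2, a chain of the interferon gamma receptor, fell by 0.55 ± 0.10 (edgeR adjusted p = 0.0232), and Ifng itself had 9 and 5 counts in the libraries labelled poh1f/f, against 0 and 0 counts in the poh1f/+ libraries, too few to test. The calls of Irf1, Il1b and Ifngr2 were lost without poh1f/+ replicate 1 (edgeR adjusted p = 0.166, 0.098 and 0.08), that of Irf1 (0.0771) without poh1f/+ replicate 2, and that of Ifngr2 without replicate 1 (0.141) or 2 (0.0748) labelled poh1f/f.

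Fibroblasts and hepatocytes are known to make C3, C4 and C1r, and their markers are given beside those members. Of 13 fibroblast markers 6 fell, among them Postn, periostin, which had the smallest p (−1.75 ± 0.14, edgeR adjusted p = 0.00373), and 7 did not pass (median −0.83). Their sum was 13370 and 10950 CPM in the libraries labelled poh1f/f, against 28750 and 34380 CPM in the poh1f/+ libraries, and none was at 0. In the poh1f/+ libraries the largest parts of the sum were Col3a1, Col1a1 and Col1a2, with means of 9279, 7402 and 6136 CPM. In the libraries labelled poh1f/f their means were 3325, 1753 and 1753 CPM. Dcn, decorin, a marker of most fibroblasts, was at 1920 and 1656 CPM in the libraries labelled poh1f/f, against 1908 and 2003 CPM in the poh1f/+ libraries and did not pass. Of 13 hepatocyte markers 9 were tested, 1 of which rose, Serpina1b, with 68 and 107 counts in the libraries labelled poh1f/f, against 2 and 2 counts in the poh1f/+ libraries, and 1 fell, Ttr, which islets also express. The Serpina1b call was lost without poh1f/+ replicate 1 (edgeR adjusted p = 0.052). The liver-defining genes were near 0: Alb, albumin, had 1.86 and 0.479 CPM in the libraries labelled poh1f/f, against 2.18 and 1.76 CPM in the poh1f/+ libraries, and Fgb, a fibrinogen chain, stayed under 0.42 CPM in every library. The hepatocyte list summed to 1743 and 2075 CPM in the libraries labelled poh1f/f, against 851 and 993 CPM in the poh1f/+ libraries. This sum rested mainly on Trf and Cyp2e1, which did not pass, and, in replicate 2 labelled poh1f/f, on Apob (190 CPM) and Apoa1 (167 CPM). In that library the intestinal markers summed to 538 CPM. The part of fibroblasts and hepatocytes in the values of C3, C4b and C1ra was not tested. Of the epithelial lists, 7 of 12 acinar markers fell (median −4.76, Cel −6.45 ± 1.17), as did 10 of 11 duct markers (median −1.87, Cldn4 −2.42 ± 0.16) and 5 of 8 islet markers (median −2.34, Sst −2.53 ± 0.33). No acinar, duct or islet marker was at 0, so markers of the labelled tissue were present in every library. Of 5 tested intestinal markers 1 fell, the stem cell gene Lgr5 (−1.84 ± 0.27), and 4 did not pass. The log2 fold change of Cel was −4.47 without poh1f/+ replicate 1 and −5.91, −7.34 and −7.25 without replicate 1 or 2 labelled poh1f/f or poh1f/+ replicate 2. Without poh1f/+ replicate 1 the calls of Cel (edgeR adjusted p = 0.0596), Lgr5 (0.0811) and Ucp1 (0.057) were lost, as was that of Lgr5 without poh1f/+ replicate 2 (0.0657).

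**Figure D3:**
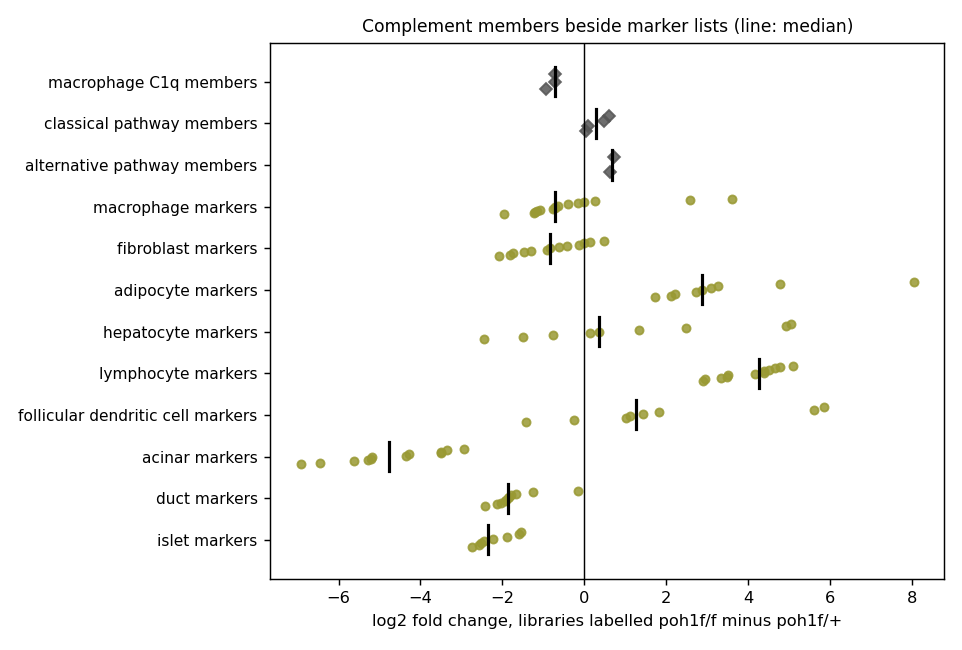
Log2 fold change (horizontal axis, libraries labelled poh1f/f minus poh1f/+) of each tested gene in the 3 groups of members (diamonds) and in the marker lists (circles), with the median as a line. The intestinal list is not shown. The medians of the C1q chains and the macrophage list are −0.71 and −0.70, while C3 and Cfb (median 0.68) lie above the fibroblast median of −0.83 and below the adipocyte median of 2.88.

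**Figure D4:**
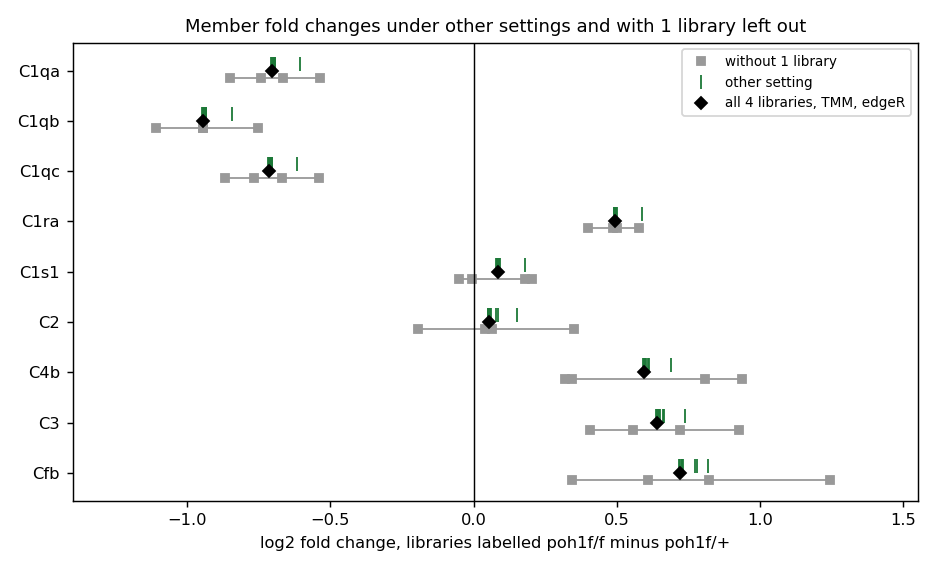
Log2 fold change (horizontal axis, libraries labelled poh1f/f minus poh1f/+) of the members with all libraries (diamonds), under 8 other settings (ticks) and with 1 library left out (squares). C1qb ranges from −1.11 to −0.75 and C3 from 0.41 to 0.93 with a library left out, while C1s1 and C2 lie on both sides of 0.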

How the data were processed

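RNA of 4 mouse pancreas libraries was sequenced, 2 per genotype group, and groups and replicate numbers came from the sample titles. The submitters' processing notes name STAR 2.7.6a, featureCounts 2.0.1, Trim Galore 0.6.6, FastQC 0.11.9 and SAMtools 1.7, and the build GRCm38. Strandedness, annotation release and the handling of reads that fit several genes or places are not given in these sources. The files deposited by the authors hold raw counts per gene symbol, per the file headers and the values, 1 file per library.

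Groups were compared in R 4.3.3 with edgeR 4.0.16: filterByExpr, TMM factors, a quasi-likelihood F test on group alone, Benjamini-Hochberg adjustment over 19134 genes at 0.05. The SE of a log2 fold change was taken from its size and F. CPM uses TMM-scaled totals of tested genes. Patterns were compared on log2 CPM (prior count 2). Coordinates, exon lengths and transcripts are from GENCODE M21 on GRCm38. The fits were tested on simulated data. The members, the gene lists, the motifs and the tests were chosen with earlier results of these data known. Outside the members, each complement or cytokine list names up to 3 called genes per direction with the smallest p, each marker list names 1, and 12 further genes and Psmd14 are always named, except where a result is not reported here; others are named to show a marker list's make-up, or as said beside them. Alternatives were other scalings and filters, DESeq2 1.42.0, limma-voom (limma 3.58.1), a replicate block, and leaving out each library.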

Additional observations from a re-analysis of the deposited data

How the results depend on the processing

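The settings tried were 3 other scalings, 2 other filters, DESeq2, limma-voom, the replicate block and leaving out each library. The signs of C1qa, C1qb, C1qc, C1ra, C4b, C3 and Cfb were the same in all 12, whereas C1s1 (−0.05 to 0.20) and C2 (−0.19 to 0.35) changed sign when a library was left out. With 1 library left out C1qa ranged from −0.85 to −0.54, C1qb from −1.11 to −0.75, C1qc from −0.87 to −0.54, C1ra from 0.40 to 0.58, C4b from 0.32 to 0.94, C3 from 0.41 to 0.93 and Cfb from 0.34 to 1.25. Which members were past the threshold, 4 with all libraries in edgeR, is a description here too. Nothing is read from changes in that set, because the contrast was known when the list was made. Without scaling beyond the library total, 2827 genes were called higher and 1527 lower, 64.9% of calls higher beside 54.9%, and the all-gene median moved by 0.10. With 1 library left out, all genes called higher ranged from 702 to 2338 and lower from 424 to 1696; the other complement genes ranged from 6 to 12 higher and from 4 to 12 lower. The low ends, 702 and 424 for all genes, came without poh1f/+ replicate 1, and 1137 genes were lower without poh1f/+ replicate 2; the cause was not tested. A group left with 1 library is assumed to vary like the other. DESeq2 called 5 members, adding C3, and 12 other complement genes higher and 9 lower. The replicate numbers gave no sign of pairing (correlation of deviations 0.03 for equal numbers), and with the replicate block 1960 genes were higher and 1432 lower, 9 and 8 of them other complement genes, and C1qb alone of the members was past the threshold. With the block the calls of C1rb (edgeR adjusted p = 0.056), C8b (0.0592), Cd46 (0.0587), Colec11 (0.0647), Colec12 (0.0795) and Ifngr2 (0.0535) were lost and Cfp (0.0407) gained. The calls of Cfd, Colec11, Colec12 and C8b were also lost under 1 or more other scalings, filters or tools, at adjusted p from 0.05 to 0.0625, and Cfp passed without scaling (0.0324) and with DESeq2 (0.00748). The fold of genes with few counts, such as C8b, Cfb, C4a and Ifng, is limited by depth.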
